A study of Mus musculus with 4 samples.

Results

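The chemokine genes of 4 bulk tumour transcriptomes were examined: every gene of the Ccl, Cxcl, Xcl and Cx3cl ligand families and of the Ccr, Cxcr, Xcr and Cx3cr receptor families whose symbol ends in digits, leaving out Cxcl1, Cxcl2, Cxcl5, Cxcr2, Ccl28, Ccr10, Cxcl13 and Cxcr5. This gave 44 of the 24444 genes in the table, 29 ligands and 15 receptors, chosen by symbol and not by level. The ligands were divided into 9 homeostatic gut ligands, 2 membrane-anchored ligands, 3 interferon-induced ligands and 15 inflammatory ligands. Chemokines are small secreted proteins that draw leukocytes along a gradient. Their receptors span the membrane and signal through Gi-type G proteins. Homeostatic chemokines keep lymphocytes circulating through gut and lymph nodes, whereas inflammatory and interferon-induced chemokines are switched on by infection, injury or cytokines and bring in neutrophils, monocytes and effector T cells.

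The tested libraries were 3 tumours of CT26-shppp2r1a cells, labelled 1, 2 and 3, and the control was 1 tumour of CT26-scr cells. CT26 is a mouse colon carcinoma line of the BALB/c strain, and Ppp2r1a encodes the scaffold subunit of the phosphatase PP2A. The cells carried a short hairpin RNA against Ppp2r1a or a scrambled one, and the methods describe them as injected under the skin of BALB/c mice. Tumours were collected once they measured around 70 mm3. Each tumour gave 1 library, and values of the knockdown tumours are given in the order 1, 2, 3 throughout. The labels do not give the age of the mice, the hairpin behind each library or whether the tumours came from separate experiments, and every p-value rests on library-to-library spread that may in part be technical.

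Depth was 24726440 to 27910370 expected counts in the 3 knockdown tumours and 28950004 in the control. Ppp2r1a was at 40.2, 29.8 and 22.3 TPM (a gene's share of all transcripts, corrected for length) in knockdown libraries 1, 2 and 3, against 75.1 TPM in the control, with all 3 knockdown libraries below it. Its log2 fold change was -1.62 (SE 0.26, adjusted p = 0.782 in edgeR's quasi-likelihood test, and 0.0255 in DESeq2). By the chi-square per degree of freedom of their counts, the control was nearest to knockdown library 3 (85.6), further from library 2 (261) and furthest from library 1 (598), and library 2 was nearer to library 3 (147) than to library 1 (185). The description of the control carries the number 3, as does that of knockdown library 3. Whether this number marks a shared batch is not stated and was not tested. Summed markers of small bowel enterocytes were at 25650, 63370 and 104700 TPM in the 3 knockdown tumours, against 102800 TPM in the control, although the labels describe colon cancer cells. Of these 10 markers, 5 were below the control in all 3 knockdown libraries and 0 above it. Fabp6, 1 of the 5, was at 2.44, 5.13 and 0.57 TPM in the 3 knockdown tumours, against 3435 TPM in the control. Those of large bowel epithelium were at 6247, 2724 and 565 TPM in the 3 knockdown tumours and 382 TPM in the control, where Car1 and Slc6a14 were listed at 0. In bulk RNA, fewer cells of a type and less RNA per cell cannot be told apart.

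The question put to the 44 genes was whether their RNA differed between Ppp2r1a knockdown and scrambled-control tumours. Of the 44, 40 passed the filter on low counts. The other 4 had 7, 2 and 1 expected counts in the 3 knockdown tumours and 0 in the control for Ccl1, 1, 3 and 1 against 0 for Cxcr1, 1, 0 and 0 against 0 for Cxcl17, and 0 everywhere for Ccl26. Only 29 of the 40 would have been kept on the control's own counts, beside 13719 of all 15246 genes tested. The other 11 chemokine genes, Ccl8 among them, passed because of their knockdown counts, a larger share than among all genes. Such genes could enter only through a knockdown library, which tilts comparisons with all genes upward. Counts and medians over the 40 are therefore descriptions only. No chemokine gene passed an adjusted p of 0.05 in edgeR, beside 0.0% of all 15246 genes tested. At an unadjusted p under 0.05 there were 0 of the 40, against 3.65% of all genes tested. DESeq2 called 1 of the 40, Ccl8 (adjusted p = 0.00397), while it called 1.04% of all genes, 0.866% as higher. At an unadjusted p under 0.05 DESeq2 gave 7 of the 40, beside 7.16% of all genes. With 1 control library the spread in both tests came from the knockdown libraries alone, and an exact permutation of 1 against 3 libraries cannot go below p = 0.25.

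Which knockdown libraries entered decided the calls. Without knockdown library 3, 15 of the 39 chemokine genes then tested passed (38.5%), beside 7.33% of all genes. Of these, 13 rose in that fit, beside 4.95% of all genes rising, and 2 fell, beside 2.38%. The 13 included Ccl2, Ccl7, Ccl8, Ccl9, Ccl12, Ccl22, Cxcl3, Cxcl9, Cxcl10, Cxcl12, Ccr2 and Cxcr4, and the 2 were Ccl5 and Ccl24. Without knockdown library 2, Ccl8 was the 1 chemokine gene called (adjusted p = 2.24e-06), as higher, beside 1.07% of all genes called, 0.868% higher and 0.199% lower, while without knockdown library 1 none was called, beside 0.0% of all genes, and 1 of 39 had an unadjusted p under 0.05, beside 4.54%. In these fits the spread came from 2 knockdown libraries, and the single control was assumed to vary like them. Ccl2, Ccl7, Ccl8, Ccl12 and Cxcl3 were among the genes that only their knockdown counts had brought past the filter. The excess over all genes in the fit without knockdown library 3 is therefore a description only.

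Fitted log2 fold changes were positive for 31 of the 40 chemokine genes and negative for 9, beside 8150 and 7096 of all 15246 genes tested. The median of the 40 was 1.25, or 1.18 with Ccr8 at its lower bound, against 0.06 over all genes tested. A log2 fold change of 1 or more was fitted for 23 of the 40, beside 16.5% of all genes, and of -1 or less for 2, beside 5.89%. By library, the median log2 ratio to the control over the 40 genes was 1.73, 1.33 and 0.01 in knockdown libraries 1, 2 and 3. In knockdown library 3, 34 of the 40 genes (85.0%) lay within 2-fold of the control, beside 90.0% of all genes tested. That number was 9 of 40 (22.5%) in knockdown library 1, beside 59.7% of all genes, and 15 of 40 (37.5%) in knockdown library 2, beside 78.7%. Knockdown library 3 was the nearest of the 3 to the control for 31 of the 40 genes (77.5%), beside 65.7% of all genes. The 6 genes of knockdown library 3 outside 2-fold were all inflammatory ligands, of which 7 of 13 (53.8%) lay within it: Ccl8, Cxcl3, Cxcl15 and Xcl1 were higher than the control and Ccl4 and Ccl20 lower. All 3 knockdown libraries were above the control in TPM for 17 chemokine genes, beside 43.6% of all genes tested, and below it for 4 genes, beside 15.9%. On TMM-scaled CPM (counts relative to library size) the numbers were 17 and 6, beside 31.8% and 27.7% of all genes. The 17 genes are near the background share in TPM, so that this count by itself is no result about chemokines. Leaving out knockdown libraries 1, 2 and 3 in turn, the remaining 2 were both above the control for 19, 17 and 29 of the 40 genes, beside 47.6%, 45.4% and 64.1% of all genes, and both below it for 4, 7 and 6, beside 21.5%, 17.4% and 22.5%.

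**Figure D1:**
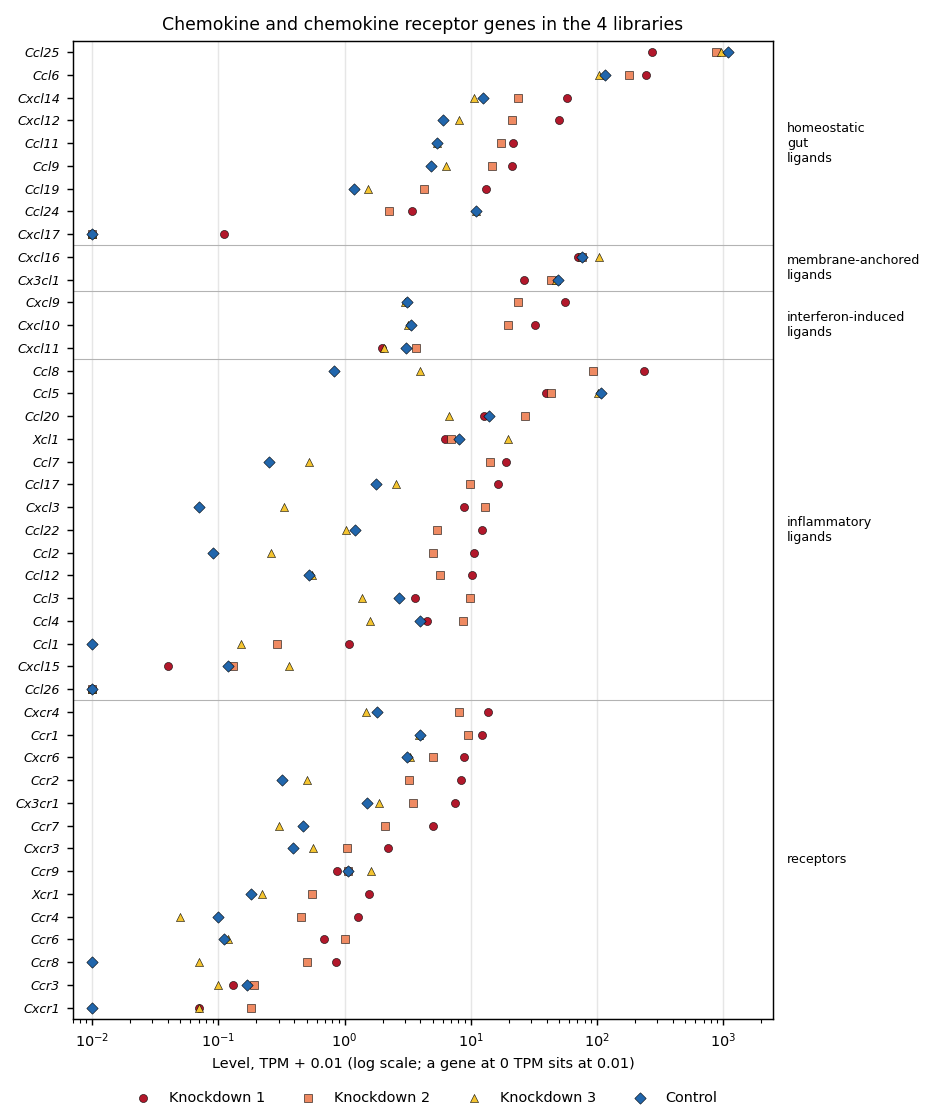
Level of 43 of the 44 chemokine and receptor genes (TPM + 0.01, log axis) in the 3 knockdown libraries and the control, 1 point a library, genes in role groups. Knockdown library 1 was the highest of the 4 libraries for 24 of the 39 tested genes plotted, and the triangles of knockdown library 3 lie near the diamonds of the control for most genes outside the inflammatory ligands.

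**Figure D2:**
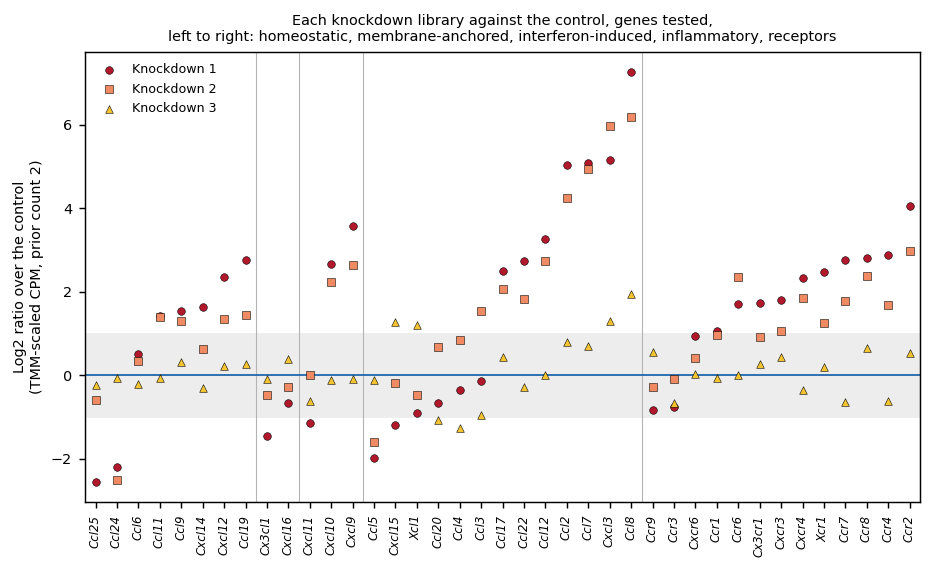
Log2 ratio of each knockdown library to the control (TMM-scaled CPM, prior count 2) for 39 of the 40 genes tested, by role, with the band within 2-fold shaded. In knockdown library 3, 33 of the 39 lie within the band, against 9 in knockdown library 1 and 15 in knockdown library 2.

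Among the homeostatic ligands, Ccl25 dominated. Ccl25 is made by small bowel epithelium and holds Ccr9-bearing lymphocytes in the gut. It was at 275, 883 and 956 TPM in knockdown libraries 1, 2 and 3, against 1096 TPM in the control. Each knockdown library was below the control, with knockdown library 1 far below the other libraries. The knockdown mean was 704.8 ± 373.7 TPM (SD, n = 3), so that the control lay little more than 1 SD above it. The sum of the small bowel enterocyte markers given above was also lowest in knockdown library 1. Of these markers, 8 of 10 were below the control in both knockdown libraries 1 and 2, and 5 of 10 in all 3. In knockdown library 3 their sum was slightly above the control, unlike Ccl25. The part of these markers in the Ccl25 level was not tested.

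Ccl25 alone made up 21.9%, 56.9% and 68.1% of the summed TPM of the 29 ligands in the 3 knockdown tumours, against 71.7% in the control. The summed ligand level was similar in the 4 libraries, at 1256, 1554 and 1403 TPM in the 3 knockdown tumours and 1529 TPM in the control. Without Ccl25 the ligands summed to 981.1, 670.3 and 447.5 TPM in the 3 knockdown tumours and 432.5 TPM in the control. For these 29 ligands, the summed share of transcripts in knockdown library 1 was thus the lowest but not far from the other libraries, with another make-up. Ligands left out by name or outside the symbol rule are not in this sum. Inflammatory ligands took 30.5%, 15.6% and 10.04% of the ligand sum in the 3 knockdown tumours, against 9.21% in the control. Interferon-induced ligands took 7.16%, 3.04% and 0.589% in the 3 knockdown tumours, against 0.623% in the control. In each group the summed shares of knockdown library 3 and the control were nearly alike. Most of the inflammatory sum was Ccl5 in both, at 102 of 140.9 TPM in knockdown library 3 and 107 of 140.8 TPM in the control. Single inflammatory ligands differed more, with 7 of the 13 tested within 2-fold of the control in knockdown library 3.

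**Figure D3:**
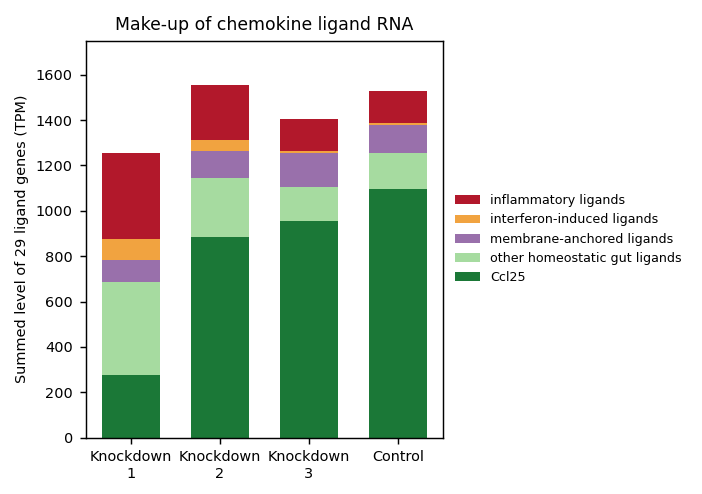
Summed TPM of the 29 ligand genes in each of the 4 libraries, stacked by role, with Ccl25 shown apart from the other homeostatic gut ligands. Ccl25 takes 21.9%, 56.9% and 68.1% of the bar in the 3 knockdown tumours and 71.7% in the control.

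The other homeostatic ligands split in direction. Cxcl12, the stromal ligand of Cxcr4, was at 49.7, 21.1 and 8.03 TPM in the 3 knockdown tumours, against 6.05 TPM in the control, a log2 fold change of 1.56 (SE 0.93). Ccl19, which draws Ccr7-bearing T cells and dendritic cells into lymphoid tissue, was at 13.3, 4.27 and 1.52 TPM in the 3 knockdown tumours, against 1.18 TPM in the control (log2 fold change 1.98, SE 1.27). Ccl9, a mouse CC chemokine that acts through Ccr1, was at 21.1, 14.7 and 6.35 TPM in the 3 knockdown tumours, against 4.87 TPM in the control (log2 fold change 1.16, SE 0.58). For these 3 genes every knockdown library was above the control, and knockdown library 3 was the nearest to it. Ccl11 and Ccl24, eotaxins that both attract eosinophils through Ccr3, had fitted changes of opposite sign. Ccl11 was at 21.7, 17.5 and 5.36 TPM in the 3 knockdown tumours and 5.44 TPM in the control (log2 fold change 1.08, SE 0.75). Ccl24 was at 3.44, 2.25 and 10.9 TPM in the 3 knockdown tumours and 11.0 TPM in the control (log2 fold change -1.16, SE 1.08). The adjusted p was 0.782 for each of these 5 genes (edgeR), and knockdown library 3 was close to the control for both eotaxins.

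Ccl6, another mouse CC chemokine acting through Ccr1, was the second ligand in level, at 244, 178 and 104 TPM in the 3 knockdown tumours and 116 TPM in the control. Cxcl14, an epithelial and stromal chemokine, was at 57.9, 23.5 and 10.6 TPM in the 3 knockdown tumours and 12.5 TPM in the control. In both, the control lay inside the range of the knockdown libraries. The median log2 fold change of the 8 homeostatic ligands tested was 0.98, with 6 higher and 2 lower. Summed fibroblast markers, all 6 of which were above the control in both knockdown libraries 1 and 2, were at 552, 274.5 and 120 TPM in the 3 knockdown tumours and 86.5 TPM in the control. Only 2 of the 6, Dcn and Lum, were above the control in all 3 knockdown libraries. Col1a1, Col1a2, Col3a1 and Pdgfra were below the control in knockdown library 3. Cxcl12, Ccl19 and Ccl9 had the same order of the 4 libraries as the sum of these markers, whose part in the result was not tested.

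The 2 membrane-anchored ligands lay nearer the control. Cxcl16, a scavenger receptor as well as the ligand of Cxcr6, was at 71.1, 76.3 and 103 TPM in the 3 knockdown tumours, against 76.0 TPM in the control. Cx3cl1, the fractalkine that tethers Cx3cr1-bearing monocytes and lymphocytes to epithelium and endothelium, was at 26.3, 43.1 and 47.7 TPM in the 3 knockdown tumours, against 49.4 TPM in the control. For Cxcl16 the groups overlapped, and for Cx3cl1 all 3 knockdown libraries were below the control. Their median log2 fold change was -0.34, and neither had an absolute log2 fold change of 1.

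The interferon-induced ligands Cxcl9, Cxcl10 and Cxcl11 all bind Cxcr3 on activated T cells and natural killer cells. Cxcl9, which responds chiefly to interferon-gamma, was at 55.6, 23.9 and 3.02 TPM in the 3 knockdown tumours, against 3.13 TPM in the control. Cxcl10 was at 32.4, 19.7 and 3.20 TPM in the 3 knockdown tumours, against 3.36 TPM in the control. In both genes knockdown libraries 1 and 2 were high, whereas knockdown library 3 was just below the control, so the groups overlapped. Cxcl11 had another pattern, at 1.96, 3.69 and 2.04 TPM in the 3 knockdown tumours and 3.04 TPM in the control. The log2 fold change was 2.69 (SE 1.56) for Cxcl9 and 2.04 (SE 1.24) for Cxcl10, each with an adjusted p of 0.782 (edgeR). Without knockdown library 3 it was 3.20 (adjusted p = 0.00424) for Cxcl9 and 2.51 (adjusted p = 0.0121) for Cxcl10, and without knockdown library 1 it was 1.85 for Cxcl9 and 1.52 for Cxcl10 (adjusted p = 0.995 each). The highest adjusted p over the 9 alternatives was 0.995 for Cxcl9 and 1.0 for Cxcl10. Summed markers of CD8 and intraepithelial lymphocytes were at 51.5, 62.0 and 189 TPM in the 3 knockdown tumours, against 289 TPM in the control. Those of T cells summed to 65.02, 44.7 and 64.3 TPM in the 3 knockdown tumours and 48.4 TPM in the control, but 5 of the 8 were above the control in all 3 knockdown libraries. Of these, Cd2, an adhesion receptor of T cells, was at 9.59, 4.95 and 1.02 TPM in the 3 knockdown tumours, against 0.93 TPM in the control. Cd28, a costimulatory receptor, was at 3.57, 1.47 and 0.50 TPM in the 3 knockdown tumours, against 0.22 TPM in the control. Knockdown libraries 1 and 2 were thus the high ones for Cd2 and Cd28 as for Cxcl9 and Cxcl10. This did not hold for the T cell list as a whole, of which 2 of the 8 were below the control in both knockdown libraries 1 and 2. Cd3g was at 23.8, 17.3 and 36.3 TPM in the 3 knockdown tumours and 25.4 TPM in the control. Cd3e was at 4.59, 3.75 and 6.59 TPM in the 3 knockdown tumours and 6.79 TPM in the control. The part of T cells in the Cxcl9 and Cxcl10 levels was not tested.

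Cxcl9 and Cxcl10 lie close together on chromosome 5, and their promoters are shown because these are the interferon-induced ligands that differed most between the libraries. The sequences are the 250 bases before the start in RefSeq on GRCm38.p6, both on the minus strand, chr5:92328080-92328329 for Cxcl9 and chr5:92348890-92349139 for Cxcl10. Capitals mark matches, on either strand, to an interferon-stimulated response element (GAAA, any 2 bases, GAAA), a gamma-activated site (TTC, any 3 bases, GAA) and an NF-kB site (GGGA, any 4 bases, CC).
Cxcl9: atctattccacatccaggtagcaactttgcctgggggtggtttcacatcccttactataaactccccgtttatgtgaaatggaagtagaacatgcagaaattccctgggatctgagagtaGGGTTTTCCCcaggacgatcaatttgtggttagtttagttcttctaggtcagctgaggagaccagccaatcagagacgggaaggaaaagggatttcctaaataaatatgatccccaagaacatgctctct
Cxcl10: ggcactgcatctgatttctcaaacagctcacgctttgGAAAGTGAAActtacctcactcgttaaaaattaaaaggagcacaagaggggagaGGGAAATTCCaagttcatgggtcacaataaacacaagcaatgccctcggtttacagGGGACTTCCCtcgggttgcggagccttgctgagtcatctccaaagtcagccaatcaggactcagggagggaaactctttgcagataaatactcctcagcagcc
The Cxcl9 window held 1 NF-kB match, first base at -130 from the start. The Cxcl10 window held an interferon element match at -213 and NF-kB matches at -159 and at -103, the last read on both strands. Promoters were found for 32 of the 44 genes, 34 promoters in all, and the other 12 genes were not matched. An interferon element match was in 3 of the 34 (Ccl19, Cxcl10 and Cxcl14), beside 2.98% of 32851 mouse promoters of the same length. A gamma-activated site match was in 3 of the 34 (Ccl17, Cxcl14 and Ccr6), beside 7.02%, and an NF-kB match was in 13 of the 34, beside 17.6%. These are matches of letters in a window, not sites shown to be bound.

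The inflammatory ligands held the widest differences between libraries. Ccl8, in mice the ligand of Ccr8, was at 238, 92.7 and 3.98 TPM in the 3 knockdown tumours, against 0.82 TPM in the control. In expected counts this was 1561, 670 and 28 against 6. Ccl8 passed the filter on low counts only through its knockdown counts. All 3 knockdown libraries were above the control, and knockdown library 1 was about as rich in Ccl8 as in Ccl6 and Ccl25. The log2 fold change was 6.60 (SE 2.76, adjusted p = 0.782 in edgeR and 0.00397 in DESeq2), and over the 9 alternatives the adjusted p ran between 2.24e-06, without knockdown library 2, and 0.995.

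Ccl2, Ccl7 and Ccl12, which recruit monocytes through Ccr2, were likewise highest in knockdown library 1 and next in knockdown library 2. Knockdown library 3 and the control had 3 and 1 counts for Ccl2, 6 and 3 for Ccl7 and 4 and 4 for Ccl12, too few to order them. Ccl7 was at 19.1, 14.3 and 0.51 TPM in the 3 knockdown tumours, against 0.24 TPM in the control. With 3 counts in the control its ratio was 37.2 (exact 95% binomial interval 12.7 to 181, counting error only), and 27.4, 31.4 and 51.2 without knockdown libraries 1, 2 and 3 in turn. Ccl2, the chief monocyte attractant, was at 10.6, 4.98 and 0.25 TPM in the 3 knockdown tumours, against 0.08 TPM in the control. This control value was 1 count, and the ratio of 52.1 had an interval of 9.24 to 2070, with 29.4, 52.6 and 71.6 when knockdown libraries 1, 2 and 3 were left out in turn. Ccl12, a mouse relative of Ccl2, was at 10.2, 5.75 and 0.54 TPM in the 3 knockdown tumours, against 0.51 TPM in the control (log2 fold change 2.96, SE 1.75, adjusted p = 0.782 in edgeR). Ccl2, Ccl7, Ccl11, Ccl12, Ccl8 and Ccl1 are consecutive protein-coding genes on chromosome 11 in RefSeq, and all 6 were highest in knockdown library 1 and next in knockdown library 2.

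Cxcl3, a neutrophil attractant that acts through Cxcr2, was at 8.87, 13.0 and 0.32 TPM in the 3 knockdown tumours, against 0.06 TPM in the control. Knockdown library 2 was the highest here, and the ratio to the 1 control count was 97.1 (interval 17.3 to 3846), with 57.8 as the lowest value when 1 knockdown library was left out, namely library 2. Summed neutrophil markers were at 1144, 894 and 17.0 TPM in the 3 knockdown tumours, against 2.82 TPM in the control, where S100a8, S100a9, Mmp8 and Cxcr1, itself one of the 44 genes, were listed at 0. All 7 markers were above the control in all 3 knockdown libraries. Macrophage and monocyte markers summed to 811, 394 and 162 TPM in the 3 knockdown tumours and 157 TPM in the control, with 9 of 9 above the control in both knockdown libraries 1 and 2 and 5 of 9 in all 3. The part of these cells in the inflammatory ligand levels was not tested.

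The promoters of Cxcl3 and Ccl8 are shown as those of 2 of the ligands furthest from the control in knockdown libraries 1 and 2, both on the plus strand of GRCm38.p6, at chr5:90785851-90786100 and chr11:82114935-82115184. Capitals mark the same matches as above.
Cxcl3: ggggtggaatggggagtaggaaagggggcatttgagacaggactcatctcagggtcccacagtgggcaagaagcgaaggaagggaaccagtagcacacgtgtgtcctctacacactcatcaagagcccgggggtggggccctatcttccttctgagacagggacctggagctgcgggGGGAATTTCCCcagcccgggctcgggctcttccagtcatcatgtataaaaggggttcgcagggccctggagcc
Ccl8: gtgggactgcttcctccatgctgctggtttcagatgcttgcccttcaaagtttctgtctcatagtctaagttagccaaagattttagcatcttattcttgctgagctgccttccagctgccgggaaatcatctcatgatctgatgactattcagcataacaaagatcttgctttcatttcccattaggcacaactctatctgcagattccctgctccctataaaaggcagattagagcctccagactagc
The Cxcl3 window held 2 overlapping NF-kB matches, first bases at -73 and -72, and the Ccl8 window held none of the 3 motifs.

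Ccl17 and Ccl22 are ligands of Ccr4, made mainly by dendritic cells and macrophages. Ccl17 was at 16.3, 9.89 and 2.54 TPM in the 3 knockdown tumours, against 1.76 TPM in the control (log2 fold change 2.04, SE 1.10). Ccl22 was at 12.4, 5.35 and 1.01 TPM in the 3 knockdown tumours, against 1.20 TPM in the control (log2 fold change 1.93, SE 1.33). All 3 knockdown libraries were above the control for Ccl17, and the control lay within their range for Ccl22. Both had an adjusted p of 0.782 (edgeR). Dendritic cell markers summed to 16.8, 10.6 and 8.78 TPM in the 3 knockdown tumours and 10.9 TPM in the control, a narrower span.

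Ccl5, made by cytotoxic lymphocytes and bound by Ccr1, had a negative fitted change. It was at 39.4, 43.1 and 102 TPM in the 3 knockdown tumours, against 107 TPM in the control. The knockdown libraries were all below the control, libraries 1 and 2 well below and library 3 close to it. The log2 fold change was -1.0 (SE 0.78, adjusted p = 0.782 in edgeR). Without knockdown library 3 it was -1.78 (adjusted p = 0.0131), and that of Ccl24 was -2.38 (adjusted p = 0.0172), against -0.69 and -0.83 without knockdown library 1, while both reached an adjusted p of 1.0 under another alternative. Gzma, a granule protease on the CD8 and intraepithelial lymphocyte list, was at 18.9, 27.7 and 98.2 TPM in the 3 knockdown tumours and 193 TPM in the control, and Cd8a was at 2.98, 5.15 and 13.9 TPM against 10.5 TPM. Of the 7 markers of this list, 5 were below the control in both knockdown libraries 1 and 2, whereas Itgae was at 7.98, 4.97 and 8.14 TPM in the 3 knockdown tumours and 7.33 TPM in the control. The part of these cells in the Ccl5 level was not tested.

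For the other inflammatory ligands tested the groups overlapped. Ccl20, which epithelium makes to attract Ccr6-bearing cells, was at 12.8, 27.1 and 6.74 TPM in the 3 knockdown tumours, against 14.0 TPM in the control. Ccl3 and Ccl4 are paired macrophage inflammatory proteins. Ccl3 was at 3.58, 9.94 and 1.37 TPM in the 3 knockdown tumours and 2.71 TPM in the control. Ccl4 was at 4.51, 8.71 and 1.58 TPM in the 3 knockdown tumours and 3.93 TPM in the control. All of Ccl20, Ccl3 and Ccl4 were highest in knockdown library 2 and lowest in knockdown library 3. Xcl1, which natural killer and CD8 T cells release to attract Xcr1-bearing dendritic cells, was at 6.22, 6.93 and 19.6 TPM in the 3 knockdown tumours and 8.07 TPM in the control, with knockdown library 3 the highest. Cxcl15, known from mouse lung, stayed between 0.03 and 0.35 TPM in the 3 knockdown tumours and was at 0.11 TPM in the control. Ccl1, which was not tested, was at 1.08, 0.28 and 0.14 TPM in the 3 knockdown tumours and listed at 0 in the control, all 3 above the control but with too few counts for a fold. Of the 13 inflammatory ligands tested, 11 had a positive and 2 a negative log2 fold change, with a median of 1.93. Only 7 of the 13 would have been kept on the control's own counts.

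The receptor genes, carried by resident as well as incoming leukocytes, were low throughout. Their 15 levels summed to 72.2, 39.7 and 14.6 TPM in the 3 knockdown tumours, against 13.6 TPM in the control. Ccr2, which marks inflammatory monocytes, was at 8.31, 3.21 and 0.49 TPM in the 3 knockdown tumours, against 0.31 TPM in the control (log2 fold change 3.22, SE 1.64). All 3 knockdown libraries were above the control, with an adjusted p of 0.782 (edgeR). Without knockdown library 3 the log2 fold change was 3.72 (adjusted p = 0.00829), without knockdown library 1 it was 2.31 (adjusted p = 0.995), and the highest adjusted p over the alternatives was 0.995. The expected counts of Ccr2, Ccl9, Ccr4, Cxcl9 and Xcr1 were not whole in at least 1 library, so part of their reads was assigned by estimate.

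Cxcr4, found on many leukocytes, was at 13.6, 8.10 and 1.46 TPM in the 3 knockdown tumours, against 1.80 TPM in the control (log2 fold change 1.69, SE 1.18). Ccr7, carried by mature dendritic cells and naive T cells, was at 5.02, 2.08 and 0.29 TPM in the 3 knockdown tumours, against 0.46 TPM in the control (log2 fold change 1.98, SE 1.53). Ccr4, on helper and regulatory T cells, was at 1.28, 0.44 and 0.04 TPM in the 3 knockdown tumours, against 0.09 TPM in the control (log2 fold change 2.31, SE 1.84). For these 3 receptors knockdown library 3 was below the control, so the groups overlapped. Cx3cr1, on resident gut macrophages and monocytes, was at 7.46, 3.51 and 1.88 TPM in the 3 knockdown tumours, against 1.51 TPM in the control (log2 fold change 1.12, SE 0.71). Cxcr3, the receptor of Cxcl9, Cxcl10 and Cxcl11, was at 2.20, 1.04 and 0.55 TPM in the 3 knockdown tumours, against 0.38 TPM in the control (log2 fold change 1.35, SE 0.90). Xcr1, on cross-presenting dendritic cells, was at 1.56, 0.54 and 0.21 TPM in the 3 knockdown tumours, against 0.17 TPM in the control (log2 fold change 1.73, SE 1.19). These last 3 were above the control in all 3 knockdown libraries, and the adjusted p was 0.782 for all 6 receptors (edgeR).

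Ccr8 and Ccr6 had almost no control counts. Ccr8, on regulatory and type 2 helper T cells, was at 0.85, 0.49 and 0.06 TPM in the 3 knockdown tumours and listed at 0 in the control, at least 2.29-fold higher in knockdown against a floor of 3 counts in the control library, and 1.53, 2.17 and 3.07 without knockdown libraries 1, 2 and 3. Ccr6, the receptor of Ccl20 on B cells and Th17 cells, was at 0.68, 0.99 and 0.11 TPM in the 3 knockdown tumours and 0.10 TPM in the control, a ratio of 5.30 over 2 control counts (interval 1.37 to 45.4), with 5.28, 3.48 and 6.998 when knockdown libraries 1, 2 and 3 were left out in turn. B cell markers summed to 132, 63.4 and 11.6 TPM in the 3 knockdown tumours, against 15.2 TPM in the control, with 6 of 6 above the control in both knockdown libraries 1 and 2. Their part in the Ccr6 level was not tested.

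Ccr1, the receptor on monocytes and neutrophils for Ccl3 and Ccl5, was at 12.3, 9.59 and 3.91 TPM in the 3 knockdown tumours, against 3.99 TPM in the control. Cxcr6, on tissue-resident lymphocytes, was at 8.79, 5.01 and 3.29 TPM in the 3 knockdown tumours, against 3.09 TPM in the control. Ccr9, the receptor of Ccl25, was at 0.86, 1.05 and 1.61 TPM in the 3 knockdown tumours and 1.06 TPM in the control. Like Cxcr6 and Ccr3, Ccr9 lay within 2-fold of the control in every knockdown library. Ccr3, the eotaxin receptor, was between 0.09 and 0.18 TPM in the 3 knockdown tumours and at 0.16 TPM in the control. Eosinophil markers summed to 24.1, 12.8 and 6.45 TPM in the 3 knockdown tumours and 6.56 TPM in the control. Epx was listed at 0 in every library, and Ear1 at 0 in knockdown library 3 and the control. Most of the sum in knockdown libraries 1 and 2 was Prg2, at 17.4, 8.37 and 1.52 TPM in the 3 knockdown tumours and 1.54 TPM in the control. Siglecf went the other way, at 0.80, 0.99 and 1.54 TPM in the 3 knockdown tumours and 3.38 TPM in the control. Of the 6 markers, 4 were above the control in both knockdown libraries 1 and 2 and 1 was below it. The median log2 fold change of the 14 receptors tested was 1.71, or 1.52 with Ccr8 at its bound, 12 higher and 2 lower. On the control's own counts 9 of the 14 would have been kept.

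Setting each receptor beside its ligands gave 23 pairs, and in 12 of them both partners were highest in the same library. Cxcl12 and Cxcr4, Ccl19 and Ccr7, Ccl2 and Ccr2, and Cxcl9 and Cxcr3 were all highest in knockdown library 1 and next in knockdown library 2. Ccl20 and Ccr6 were both highest in knockdown library 2. Ccl25 was highest in the control and Ccr9 in knockdown library 3, although the Ccr9 levels spanned less than 1 TPM. Cx3cl1 was highest in the control and Cx3cr1 in knockdown library 1. The libraries are shared by all pairs, so that the count of 12 describes 4 tumours and not 23 separate cases. Knockdown library 1 was the highest for 25 of the 40 genes tested, so a shared highest library would be common whichever genes were paired.

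**Figure D4:**
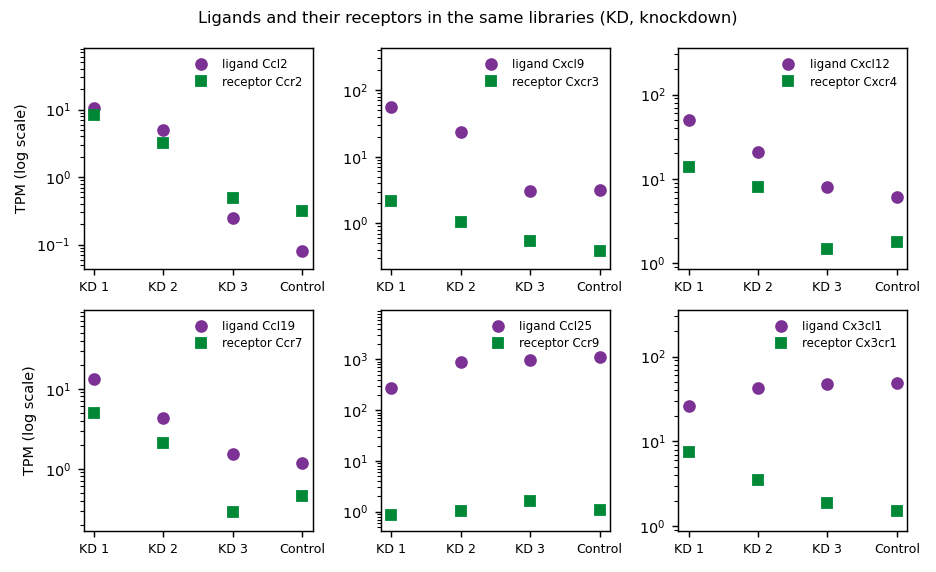
TPM (log axis) of 6 ligands and their receptors in the 3 knockdown libraries (KD 1 to KD 3) and the control, 1 point a library. For Ccl2, Cxcl9, Cxcl12 and Ccl19 ligand and receptor are both highest in knockdown library 1, whereas Ccl25 and Cx3cl1 are highest in the control and their receptors are not.

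Other genes of the chemokine pathway had a median change nearer to that of all genes. The list held atypical decoy receptors, further ligands, G protein subunits, receptor kinases, arrestins and the enzymes of leukocyte migration, 37 genes of which 34 were tested. None passed an adjusted p of 0.05, and 1 had an unadjusted p under 0.05. Fitted changes were positive for 20 and negative for 14, with a median log2 fold change of 0.22. Ackr2, a decoy receptor that removes inflammatory CC chemokines, was at 1.15, 0.38 and 0.23 TPM in the 3 knockdown tumours, against 0.10 TPM in the control (log2 fold change 2.12, SE 1.13). Ackr1, a chemokine-binding protein of venules, was at 2.95, 1.54 and 0.62 TPM in the 3 knockdown tumours, against 0.48 TPM in the control (log2 fold change 1.41, SE 0.97). Prex1, which activates Rac downstream of G proteins, was at 9.57, 5.24 and 2.25 TPM in the 3 knockdown tumours, against 1.81 TPM in the control (log2 fold change 1.27, SE 0.70). All 3 knockdown libraries were above the control for these genes.

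Ccl21a and Ccl21c encode near-identical copies of the Ccr7 ligand, so that their division of reads is uncertain. Ccl21a was at 104, 70.9 and 21.5 TPM in the 3 knockdown tumours, against 22.4 TPM in the control (log2 fold change 1.16, SE 0.78). Ccl21c was at 20.3, 10.3 and 1.14 TPM in the 3 knockdown tumours, against 1.62 TPM in the control (log2 fold change 2.26, SE 1.54). In both the control lay inside the range of the knockdown libraries. The adjusted p was 0.782 for all 5 of these pathway genes (edgeR). Endothelial markers summed to 24.6, 13.0 and 7.11 TPM in the 3 knockdown tumours and 7.86 TPM in the control, and plasma cell markers to 8570, 2922 and 828 TPM against 268 TPM, the same order of the knockdown libraries as most chemokine genes, and their part in the chemokine levels was not tested.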

How the data were processed

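Bulk RNA-seq of 4 tumours (3 knockdown, 1 control) was used. The authors deposited 1 table of 24444 genes with expected counts (estimated reads per gene), TPM and FPKM per library, none pooled. Its header also names a fold change and a fraction, the posterior probability of equal expression, which the authors computed between the groups and which were not used; FPKM was not used either. Bowtie 0.12.2 and the builds mm8 and mm10 are listed in the submitters' processing notes with no role, and which program counted reads was not given in the sources used here; of the expected counts, 5.3% to 5.89% per library were not whole. No column was left without a sample.

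Expected counts were rounded and fitted over all genes with edgeR 4.0.16 in R 4.3.3 (quasi-likelihood F-test, two-sided, TMM factors, filterByExpr with a minimum count of 10, which kept 15246 genes), with Benjamini-Hochberg adjustment and a threshold of 0.05. The SE of a log2 fold change is its size over the root of F. The study states no test for these libraries. TPM was taken as deposited by the authors. Totals were 24726440, 27508469 and 27910370 expected counts in knockdown tumours 1, 2 and 3 and 28950004 in the control, and no 2 libraries agreed within sampling noise. Where the control had 0 counts a lower bound over a floor of 3 counts is given, and where it had 1 to 3 a ratio with an exact 95% binomial interval, both on TMM-scaled sizes; intervals and floors cover counting error only, since reads without molecular identifiers are not independent molecules. The fit was tested on simulated data.

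Alternatives were RLE factors, library size alone, no filter, DESeq2 1.42.0, limma 3.58.1 on log2 CPM (prior count 2) and on log2(TPM + 1), and leaving out each knockdown library. The genes and lists were chosen with earlier results of these data known. Every chemokine gene is counted, the value in every library is given for those at 1 TPM or more in any library, and a fold change for those with an absolute log2 fold change of 1 or more, likewise Ppp2r1a and the 6 largest of the other pathway genes; some genes that the rule would name are not reported here. The listed symbols Ccl27 and Cxcr7 were not matched in the table. Promoters and gene order are from RefSeq GRCm38.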

Additional observations from a re-analysis of the deposited data

How the results depend on the processing

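The number of genes called was 0 with edgeR, 159 with DESeq2 (132 higher, 27 lower), and between 0 and 1111 when 1 knockdown library was left out: 0 without library 1, 161 without library 2 and 1111 without library 3. At an unadjusted p under 0.05 there were 556 in edgeR and 1092 in DESeq2. For the chemokine genes it was 0 with edgeR, 1 with DESeq2 and between 0 and 15 when 1 knockdown library was left out. RLE factors, library size alone, no filter and both limma fits called none. In an alternative chosen after seeing the data, the genes with every remaining knockdown library above the control numbered between 17 and 29 when 1 library was left out, highest without library 3 (beside 64.1% of all genes tested), and those below it between 4 and 7, highest without library 2 (beside 17.4%). The median log2 fold change of all genes tested was 0.06, but 0.40 with library size alone and 0.22 on log2(TPM + 1), so changes under these are to be read relative to that shift. The receptors' median was 0.64 on log2(TPM + 1), which understates low genes, and that of the other pathway genes was 0.62 with library size alone. The median of each chemokine list kept its sign under all 9 alternatives, between 0.54 and 1.42 for homeostatic, -0.67 and -0.07 for membrane-anchored, 1.52 and 2.51 for interferon-induced, 1.16 and 2.43 for inflammatory ligands and 0.64 and 2.18 for receptors. Of 243 fits of the 27 genes chosen for a fold change, none turned its direction. All 9 alternatives use the same 1 control library, and the genes apart from Ppp2r1a were chosen by the size of their fold change. Their kept directions were thus largely fixed in advance and are no separate support. No paired analysis was possible because the control is 1 library with no number in its title and the number 3 in its description, which it shares only with knockdown library 3, so the groups share fewer than 2 numbers.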
